A study of Mus musculus with 4 samples.

Results

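The 5 genes described here encode small signalling chains that lend activating receptors their signal, and an Fc receptor that depends on one of them. They were taken by name: Fcer1g, Tyrobp, Hcst, Cd247 and Fcgr3, 5 of 15301 genes listed in any of 4 single-cell libraries of mouse colon intraepithelial lymphocytes (IELs), which are T cells lodged among the gut's epithelial cells. All 5 were listed in all 4 libraries. The labels divide the sorted cells into TCRβ+CD8α+ and TCRγδ+CD8α+ (the latter written with TCRγ alone in one label), each as Tcf7WT and Tcf7KO. One strain, E8IcreTcf7fl/fl, is given for all 4 libraries, so the controls carry that strain label too, and the genotypes are told apart by the genotype label alone. E8I is a regulatory element of the Cd8 locus, so this Cre acts in CD8α-expressing T cells and not in the whole mouse. Age, sex, the number of mice behind each library and any pooling are not given in the sources used here.

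Each group was 1 library, so differences stand without replication and without a test. With the TCRβ sort before the TCRγδ sort, and in each sort Tcf7WT before Tcf7KO, the libraries held 7603, 5785, 1888 and 1511 cells, with 6195292 to 20289960 UMIs (unique molecular identifiers, each standing for 1 captured transcript) per library. Median UMIs per cell were 2431, 2860, 3188 and 4366 in that order. Tcf7, which encodes the transcription factor TCF-1, stood at 148, 107, 45.7 and 14.6 CPM in the same order, where CPM is a gene's UMIs per 1000000 UMIs of the library or class of cells. UMIs come from the transcript's 3′ end, which the deletion may leave in place, so these values do not check the genotype labels. T cell markers (Cd3d, Cd3e, Cd3g, Cd8a) had UMIs in 99.0% to 99.98% of cells. Trac, the constant gene of the TCRα chain, had at least 2 UMIs in 39.6% and 45.7% of TCRγδ Tcf7WT and Tcf7KO cells. At least 2 Trdc UMIs were found in 0.855% and 0.933% of TCRβ cells. Constant genes of TCRγ and TCRδ had UMIs in 96.7% and 98.4% of TCRγδ cells and in 35.3% and 37.0% of TCRβ cells (Tcf7WT, then Tcf7KO). Those of TCRα and TCRβ (Trac, Trbc1, Trbc2) had UMIs in 94.7% and 97.3% of TCRγδ cells and in 99.3% and 99.5% of TCRβ cells. In the TCRγδ sort they summed to 2284 and 2356 CPM, beside 2422 and 2420 CPM for the constant genes of TCRγ and TCRδ. Whether TCRγδ-sorted cells with Trac UMIs are αβ cells was not tested. Across the libraries, 26 barcodes occurred more than once. Leaving out either the cells with at least 2 such Trac or Trdc UMIs or the cells with these barcodes kept the direction of every member's ratio. The values that moved are given beside the results.

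ITAM adaptors are transmembrane proteins with a short outer part. The receptor they pair with binds the ligand, and the adaptor's immunoreceptor tyrosine-based activation motif (ITAM), once phosphorylated by Src-family kinases, recruits the kinases Syk and ZAP-70. In conventional T cells the chain that does most of this work is CD3ζ, and Fc receptor γ and DAP12 are better known from mast cells, macrophages and natural killer cells. In gut IELs that carry CD8αα homodimers, Fc receptor γ is also known to be built into the T cell receptor complex, in place of or together with CD3ζ. IELs that carry CD8αβ, which needs the β chain gene Cd8b1, are mostly conventional T cells that entered the epithelium after priming.

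By role, Cd247 encodes CD3ζ, the chain with several ITAMs in the T cell receptor. Fcer1g encodes the Fc receptor γ chain, shared by Fc receptors and several other activating receptors. Tyrobp encodes DAP12, the partner of many killer-cell and myeloid receptors, and Hcst encodes DAP10, which carries a phosphatidylinositol 3-kinase binding motif instead of an ITAM and signals for NKG2D. Fcgr3 encodes the low-affinity IgG receptor FcγRIII, whose surface expression depends on Fc receptor γ. On GRCm38 (GENCODE M21) all 5 are protein-coding genes. Fcer1g (ENSMUSG00000058715.11) spans chr1:171229572-171234365 on the minus strand and Fcgr3 (ENSMUSG00000059498.13) chr1:171051174-171064935 on the minus strand, with 164.636 kb between them. Cd247 (ENSMUSG00000005763.15) spans chr1:165788681-165877277 on the plus strand. Tyrobp (ENSMUSG00000030579.10) at chr7:30413760-30417585, plus strand, and Hcst (ENSMUSG00000064109.8) at chr7:30417712-30419854, minus strand, lie tail to tail with 126 bases between their ends. Libraries of this kind read transcript ends, and the sources used here do not say whether counting used strand. A read that runs past one gene's end could therefore be counted for the other, and Fcgr3 has close relatives, Fcgr2b and Fcgr4, that can share reads with it.

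The promoter sequences of Fcer1g, Hcst and Cd247 are shown because these genes went in different directions in the comparisons that follow: between genotypes Fcer1g was higher in Tcf7KO, Hcst was lower, and Cd247 had an interval that held no difference in the TCRβ sort. Each stretch is the 250 bases before the RefSeq transcription start on GRCm38.p6, read 5′ to 3′ in the direction of the gene, with every match to AGGAAG or its reverse complement CTTCCT in capitals, the core that ETS-family factors bind. A RefSeq promoter was matched for 4 of 5 members, all but Tyrobp.
Fcer1g, chr1:171234350-171234599, minus strand: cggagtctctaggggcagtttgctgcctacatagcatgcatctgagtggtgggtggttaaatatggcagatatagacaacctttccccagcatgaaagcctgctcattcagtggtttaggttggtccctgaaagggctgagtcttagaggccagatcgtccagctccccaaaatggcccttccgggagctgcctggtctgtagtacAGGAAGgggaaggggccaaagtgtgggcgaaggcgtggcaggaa
Hcst, chr7:30419855-30420104, minus strand: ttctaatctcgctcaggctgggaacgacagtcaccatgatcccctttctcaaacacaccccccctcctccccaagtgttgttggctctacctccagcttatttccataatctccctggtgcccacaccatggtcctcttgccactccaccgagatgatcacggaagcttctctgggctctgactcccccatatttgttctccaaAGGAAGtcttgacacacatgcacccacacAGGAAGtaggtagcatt
Cd247, chr1:165788431-165788680, plus strand: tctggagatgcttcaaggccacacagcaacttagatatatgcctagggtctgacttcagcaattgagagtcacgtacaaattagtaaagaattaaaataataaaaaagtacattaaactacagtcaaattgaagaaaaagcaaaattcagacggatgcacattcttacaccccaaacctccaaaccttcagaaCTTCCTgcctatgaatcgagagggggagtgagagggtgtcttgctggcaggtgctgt
The ETS core occurred once in Fcer1g, Fcgr3 and Cd247 and 2 times in Hcst, in a window where 29.48% of 32851 RefSeq promoters hold it on either strand. In Fcer1g it lay 39 to 44 bases before the start. The TCF/LEF core, searched on both strands as CTTTG followed by 2 letters that were each A or T, was in none of the 4 windows, against 14.84% of all promoters, and the RUNX core TGTGGT was in none, against 14.05%. The motifs were chosen after the sequences had been seen, and the absence of these letters says nothing about the factors.

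Fcer1g was an abundant transcript in all 4 libraries. Its level was 1808 CPM in TCRβ Tcf7WT (95% interval 1789.7 to 1827), 2010.05 CPM in TCRβ Tcf7KO (1989.6 to 2031), 2128 CPM in TCRγδ Tcf7WT (2092 to 2165) and 2875 CPM in TCRγδ Tcf7KO (2836 to 2914). These intervals, like all others here, cover counting error only. TCRβ Tcf7WT was lowest and TCRγδ Tcf7KO highest, and no neighbours in the order overlapped in counting error. To compare shares of cells across depths, every cell was thinned to 1624 UMIs, which left out 759, 489, 300 and 28 cells (TCRβ before TCRγδ, and Tcf7WT before Tcf7KO). After thinning, an Fcer1g UMI was found in 82.7%, 85.3%, 88.7% and 96.7% of cells in that order, and without thinning in 86.3%, 89.3%, 90.4% and 97.6%. Cells with at least 1% of their UMIs from 10 epithelial markers, which should lack the gene, had 0 to 3 Fcer1g UMIs per library and at most 9.14 CPM. After thinning, 0 of 10, 3, 11 and 18 such cells had one, so few that a share of up to 30%, 100%, 27.3% and 16.7% is allowed. Their median depths were 11086, 38231, 2559 and 23409 UMIs before thinning.

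Tyrobp was spread more widely between the libraries. It stood at 803 CPM in TCRβ Tcf7WT (790.2 to 815), 976 CPM in TCRβ Tcf7KO (962 to 990.5), 1546 CPM in TCRγδ Tcf7WT (1515 to 1577) and 2259 CPM in TCRγδ Tcf7KO (2225 to 2294). Both TCRγδ libraries were above both TCRβ libraries. Thinned shares of cells with a UMI were 46.98%, 52.1%, 67.9% and 92.7%, and unthinned shares 52.7%, 59.5%, 69.7% and 95.5%. Epithelial-marked cells had 0 to 2 Tyrobp UMIs per library, and 0 of the same thinned cells had one. For Hcst, Cd247 and Fcgr3 they had at most 5, 0 and 1 UMIs per library, and among them 1 of 11 thinned cells of TCRγδ Tcf7WT had an Hcst UMI.

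Hcst had another order. It was highest in TCRγδ Tcf7WT at 1017 CPM (992 to 1042), followed by TCRβ Tcf7WT at 846 CPM (833 to 858), TCRβ Tcf7KO at 710.2 CPM (698 to 722) and TCRγδ Tcf7KO at 641 CPM (623 to 660.2). Both Tcf7WT libraries stood above both Tcf7KO libraries. Thinned shares in that order were 75.3%, 71.5%, 63.7% and 59.9%. Unthinned shares were 87.8%, 81.4%, 78.3% and 83.5%, in which TCRγδ Tcf7KO, with the most UMIs per cell, was not the lowest.

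Cd247 varied least. It stood at 151 CPM in TCRβ Tcf7WT (146 to 156), 154 CPM in TCRβ Tcf7KO (149 to 160.04), 184 CPM in TCRγδ Tcf7WT (173 to 195) and 149 CPM in TCRγδ Tcf7KO (140.4 to 158). TCRγδ Tcf7WT was above the other libraries, and those 3 overlapped in counting error. A Cd247 UMI was found in 21.5%, 21.3%, 27.2% and 22.6% of thinned cells.

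Fcgr3 was scarce in every library, at 11.9 CPM in TCRβ Tcf7WT (10.5 to 13.5, from 242 UMIs), 26.1 CPM in TCRβ Tcf7KO (23.8 to 28.5, 479 UMIs), 19.4 CPM in TCRγδ Tcf7WT (16.1 to 23.2, 120 UMIs) and 57.5 CPM in TCRγδ Tcf7KO (52.1 to 63.3, 413 UMIs). Both Tcf7KO libraries were above both Tcf7WT libraries. Thinned shares were 1.72%, 3.74%, 3.65% and 8.70%. Of other Fc receptor genes, 6 of 9 were listed in no library, and Fcgr2b had 7 UMIs in each Tcf7KO library.

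**Figure D1:**
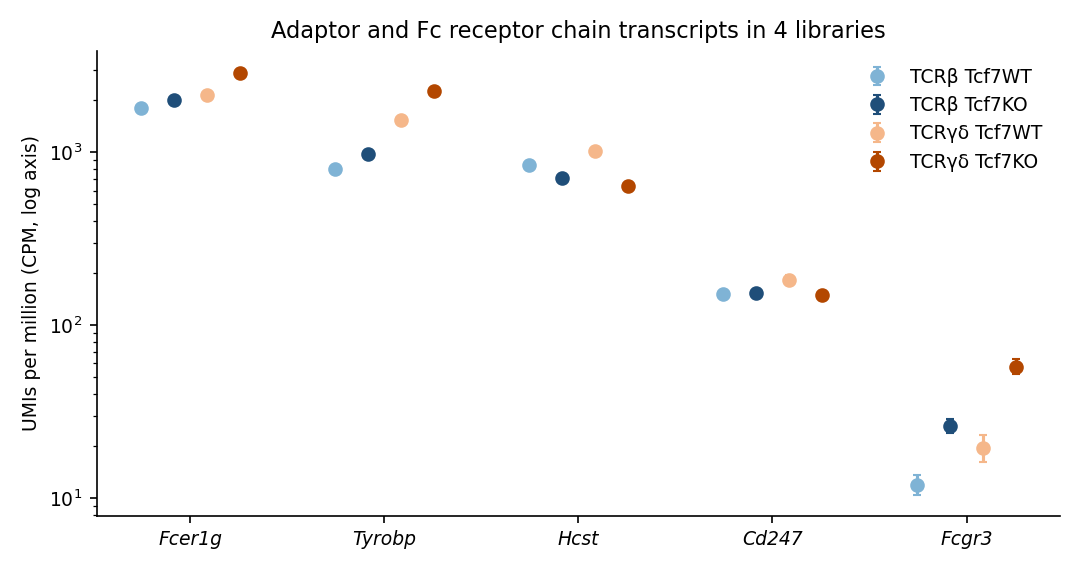
Level of each member in the 4 libraries, in CPM on a log axis; points are library totals and bars are exact 95% Poisson intervals for counting error, often smaller than the point. Fcer1g and Tyrobp are highest in TCRγδ Tcf7KO at 2875 and 2259 CPM, where Hcst is lowest at 641 CPM.

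Setting Tcf7KO against Tcf7WT within the TCRβ sort asks which of these transcripts differ in αβ IELs labelled as lacking Tcf7. Fcgr3 was 2.19-fold higher in Tcf7KO (log2 ratio 1.13, interval 0.90 to 1.36). Tyrobp (0.28, 0.25 to 0.31) and Fcer1g (0.15, 0.13 to 0.17) were higher by less, Hcst was lower (-0.25, -0.28 to -0.22) and Cd247 had an interval that held 0 (0.03, -0.04 to 0.10). At a bound of 1.5-fold, 1 of 5 members was higher and 0 were lower. Among 10764 genes with at least 100 UMIs over both libraries, 1.66% were at least 1.5-fold higher and 2.24% lower, with a median log2 ratio of -0.07, and the median of the 5 members was 0.15. A myeloid marker moved with Fcgr3 here, with Itgam at 66 UMIs in Tcf7KO against 25 UMIs in Tcf7WT (3.59 and 1.23 CPM), and 1 of the 2 myeloid genes with at least 50 UMIs was past 1.5-fold. Without cells that held a UMI of Itgam or of 6 other myeloid, mast or B cell markers, Fcgr3 stood at 1.10.

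Within the TCRγδ sort Fcer1g, Tyrobp, Hcst and Fcgr3 leaned the same ways as in the TCRβ sort, and further. Fcgr3 was 2.97-fold higher in Tcf7KO (1.57, 1.27 to 1.87), Tyrobp stood at 0.55 (0.51 to 0.58) and Fcer1g at 0.43 (0.40 to 0.47). Hcst was 1.585-fold lower (-0.66, -0.72 to -0.61), and Cd247 stood at -0.30 (-0.42 to -0.18). Past the bound 1 member was higher and 1 lower, where 4.61% and 3.42% of 9219 genes were. Tyrobp, at 1.46-fold, passed the bound as well under TMM (0.59) and DESeq2 (0.59) scaling, with each cell weighing the same (0.70) and without cells marked as epithelial, myeloid, mast or B cells (0.70). Epithelial transcripts differed between these 2 libraries: 10 of 10 markers were at least 1.5-fold higher in TCRγδ Tcf7KO, their sum at 2049 against 726 CPM, and 18 epithelial-marked cells there held 429726 UMIs, against 101943 UMIs in the 18 of Tcf7WT. The difference in epithelial RNA is part of the totals that CPM divides by. Without the cells that held at least 2 Trac UMIs, Hcst stood at -0.78, Cd247 at -0.42, Fcgr3 at 1.22, Tyrobp at 0.57 and Fcer1g at 0.41.

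Over all cells, the genotype ratio differed between the sorts for every member by more than counting error. The TCRγδ log2 ratio minus the TCRβ log2 ratio was 0.28 for Fcer1g (0.24 to 0.32), 0.27 for Tyrobp (0.22 to 0.31), -0.41 for Hcst (-0.48 to -0.35), -0.33 for Cd247 (-0.47 to -0.19) and 0.44 for Fcgr3 (0.07 to 0.81). With 1 library per group this difference was not tested against variation between mice. Among cells without a UMI of Gzma, the granzyme A gene, the TCRβ and TCRγδ ratios were close for Fcer1g (0.01 in both) and Tyrobp (-0.04 and -0.07). They were further apart for Hcst (-0.18 and -0.53), Cd247 (0.04 and -0.26) and Fcgr3 (0.64 and 1.14). Among cells with a Gzma UMI, Fcer1g stood at 0.15 and 0.56 and Tyrobp at -0.17 and 0.72.

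Between the sorts, Tyrobp stood furthest apart among the abundant members. In Tcf7WT it was 1.93-fold higher in TCRγδ than in TCRβ cells (0.95, 0.91 to 0.98), and in Tcf7KO 2.31-fold higher (1.21, 1.18 to 1.24). Fcgr3 was 0.70 (0.37 to 1.02) and 1.14 (0.95 to 1.33), and Fcer1g 0.24 and 0.52. Past the bound, 2 of 5 members (Tyrobp and Fcgr3) were higher in TCRγδ in each genotype and none was lower, where 6.84% and 6.89% of 10283 genes were higher and lower in Tcf7WT and 8.45% and 7.2% of 10231 genes in Tcf7KO. Hcst was higher in TCRγδ cells in Tcf7WT (0.27) and lower in Tcf7KO (-0.15, -0.20 to -0.10), and Cd247 was 0.28 (0.18 to 0.38) and -0.05 (-0.15 to 0.05). The directions of Tyrobp, Fcer1g and Fcgr3 turned in Tcf7WT among cells with a Gzma UMI. There TCRγδ over TCRβ was -0.28 for Tyrobp (1433 against 1735 CPM), -0.13 for Fcer1g and -0.77 for Fcgr3. Hcst (1100 against 989 CPM) and Cd247 (209 against 112 CPM) stayed higher in TCRγδ cells. Other cell type markers moved with the sort. With at least 50 UMIs, 8 of 9 epithelial markers were at least 1.5-fold higher in TCRγδ cells in Tcf7WT and 9 of 9 in Tcf7KO (list medians 1.37 and 4.004), 2 of 2 and 1 of 2 myeloid markers were higher, and 2 of 2 and 3 of 3 circulating T cell markers were lower. Without cells marked by Ccr7, S1pr1 or Lef1, Fcgr3 stood at 0.55 in Tcf7WT, under the bound. A further filter left out cells with at least 2 UMIs of Trac in the TCRγδ sort or of Trdc in the TCRβ sort. Tyrobp then stood at 0.76 in Tcf7WT and 1.05 in Tcf7KO and Fcer1g at 0.10 and 0.36, lower than over all cells. The Trac-marked TCRγδ cells held 1750 and 2522 CPM of Tyrobp in Tcf7WT and Tcf7KO, above the 1546 and 2259 CPM of their libraries. Whether they are αβ cells was not tested. The genotype and sort comparisons share libraries, so these values are not independent of those above.

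The TCRβ sort was also divided by Cd8b1. A cell with no Cd8b1 UMI was taken as Cd8b1-negative and any other as Cd8b1-positive, which gave 779 positive of 7603 cells in Tcf7WT and 638 of 5785 in Tcf7KO. A cell can hold Cd8b1 transcripts and show no UMI, so the negative class may include cells that express it. Depth was close, with median UMIs of 2420 for negative and 2544 for positive cells in Tcf7WT and 2840 and 3019 in Tcf7KO. Cd8a, which both classes need for the sort, stood at 1355 CPM in negative and 1285 CPM in positive Tcf7WT cells. In the TCRγδ sort only 21 and 3 cells were positive, and no comparison was made there.

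Fcer1g, Tyrobp and Fcgr3 were higher in Cd8b1-negative cells in both genotypes. In Tcf7WT, Fcer1g stood at 1912 CPM in negative against 959 CPM in positive cells (log2 ratio 0.99, 0.93 to 1.06), Tyrobp at 864 against 299 CPM (1.53, 1.42 to 1.64), and Fcgr3 had 234 against 8 UMIs (1.84, 0.84 to 3.07). In Tcf7KO, Fcer1g stood at 2112 against 1265 CPM (0.74, 0.68 to 0.80), Tyrobp at 1032 against 570.3 CPM (0.85, 0.77 to 0.94), and Fcgr3 had 456 against 23 UMIs (1.44, 0.83 to 2.11). Past 1.5-fold, 3 of 5 members were higher and none was lower in each genotype, where 8.33% and 3.12% of 9870 genes were higher and lower in Tcf7WT and 5.09% and 3.06% of 9548 genes in Tcf7KO. Cd247 went the other way, at 145 against 202 CPM in Tcf7WT (-0.48, -0.62 to -0.33) and 149.8 against 187 CPM in Tcf7KO (-0.32, -0.47 to -0.16). Hcst was slightly lower in negative cells, at 838 against 911 CPM (-0.12) and 699 against 792 CPM (-0.18). The Tyrobp log2 ratio was smaller in Tcf7KO (difference -0.68, -0.81 to -0.54), where positive cells held 570.3 CPM against 299 CPM in Tcf7WT. Epithelial markers moved with this division too: 8 of 8 with at least 50 UMIs were at least 1.5-fold higher in negative cells of Tcf7WT and 7 of 7 in Tcf7KO, and their part in the members' ratios was not tested here beyond leaving out the marked cells, which kept every direction.

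The Fcer1g level fell with the number of Cd8b1 UMIs in the cell. In Tcf7WT cells with 0, 1, 2 or 3, and at least 4 Cd8b1 UMIs (6824, 361, 194 and 224 cells), Fcer1g stood at 1912, 1495, 889.8 and 198 CPM. In Tcf7KO (5147, 328, 145 and 165 cells) it stood at 2112, 1762, 1247 and 353 CPM. The thinned share of cells with an Fcer1g UMI went from 86.9% through 72.2% and 46.2% to 9.81% (6.18 to 14.6) in Tcf7WT, and from 89.1% through 78.4% and 56.2% to 11.7% (7.21 to 17.7) in Tcf7KO. Most cells with at least 4 Cd8b1 UMIs thus had no Fcer1g UMI at this depth. What free RNA added to any class was not tested.

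Tyrobp followed the same steps, from 864 through 456.5 and 258 to 92.8 CPM in Tcf7WT and from 1032 through 784 and 637 to 112 CPM in Tcf7KO. In the cells with 2 or 3 Cd8b1 UMIs it was 637 CPM in Tcf7KO against 258 CPM in Tcf7WT (log2 ratio 1.31), while at 4 or more the genotype ratio had an interval that held 0 (0.28, -0.25 at its lower end). Cd247 ran in the opposite direction, from 145 to 253 CPM in Tcf7WT and from 149.8 to 244 CPM in Tcf7KO. Hcst ended highest, at 1033 and 963 CPM against 838 and 699 CPM in negative cells. Its course in Tcf7KO was not graded, with 766 CPM at 1 and 656 CPM at 2 or 3 Cd8b1 UMIs. Fcgr3 had 0 UMIs in the 224 and 165 cells with at least 4 Cd8b1 UMIs, which allows up to 1.34% and 1.82% of cells with a UMI.

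**Figure D2:**
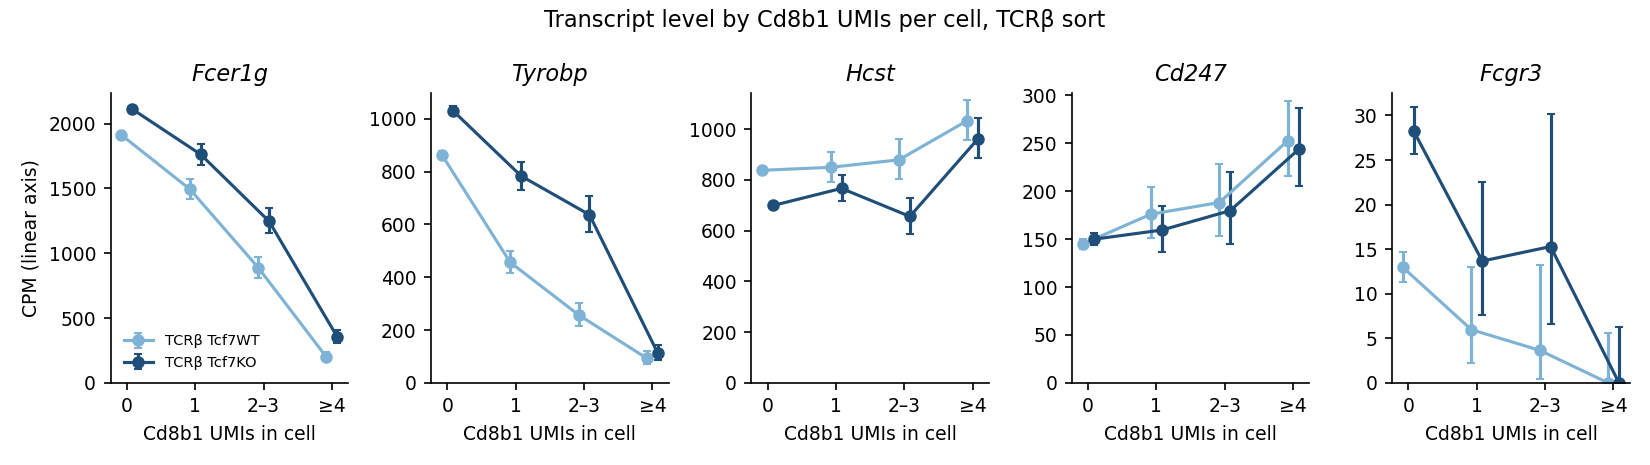
Level of each member in TCRβ cells with 0, 1, 2 or 3, and at least 4 Cd8b1 UMIs, on linear CPM axes from 0; points are sums over the cells of a class and bars are exact 95% Poisson intervals. Fcer1g goes from 1912 to 198 CPM in Tcf7WT and from 2112 to 353 CPM in Tcf7KO, while Cd247 goes from 145 to 253 CPM and from 149.8 to 244 CPM.

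Transcripts of 2 chains that can serve the T cell receptor were set against each other within the same cells, as Fcer1g UMIs per Cd247 UMI. Each molecule counts once whatever its length, although capture can differ between genes. Fc receptor γ also serves other receptors and protein was not measured, so this transcript ratio does not give the balance of chains in the receptor. It was 11.97 (11.5 to 12.4) in TCRβ Tcf7WT, 13.03 (12.5 to 13.5) in TCRβ Tcf7KO, 11.6 (10.9 to 12.3) in TCRγδ Tcf7WT and 19.3 (18.1 to 20.5) in TCRγδ Tcf7KO. In Cd8b1-positive TCRβ cells it was 4.75 and 6.78 in Tcf7WT and Tcf7KO. In cells with at least 4 Cd8b1 UMIs it was 0.783 (0.618 to 0.991) and 1.45 (1.16 to 1.80), so that Cd247 UMIs outnumbered Fcer1g UMIs in the Tcf7WT class alone. Tyrobp UMIs per Hcst UMI were 0.949, 1.37, 1.52 and 3.52 in the 4 libraries and 0.328 and 0.720 in the Cd8b1-positive cells.

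Cd8b1-positive cells also held more markers of circulating T cells. Ccr7, S1pr1 and Lef1 were each at least 1.5-fold higher in them in both genotypes (3 of 3, against 3.12% of all genes in Tcf7WT and 3.06% in Tcf7KO). Their median log2 ratio of negative to positive cells was -2.42 in Tcf7WT and -2.03 in Tcf7KO. Cells with at least 2 of these markers (243 and 236 cells) had 549 and 713 CPM of Fcer1g, 113 and 192 CPM of Tyrobp and 251 and 205 CPM of Cd247. With every cell that held a UMI of one of these markers left out, Fcer1g stood at 2016 against 1277 CPM in negative and positive Tcf7WT cells (log2 ratio 0.66) and at 2257 against 1602 CPM in Tcf7KO (0.49). Tyrobp stood at 947 against 432 CPM and at 1153 against 781 CPM. The difference between the Cd8b1 classes was thus smaller without those cells, and Fcer1g and Tyrobp no longer reached 1.5-fold in Tcf7KO. Among cells with at least 2 Cd8b1 UMIs and none of these markers (199 and 158 cells), Fcer1g stood at 747 and 1045 CPM.

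Cells with a Tyrobp UMI mostly had an Fcer1g UMI as well. After thinning, both had a UMI in 44.1% and 49.5% of cells in the TCRβ sort (Tcf7WT, then Tcf7KO) and in 65.2% and 91.8% in the TCRγδ sort. Fcer1g without Tyrobp was common in the first 3 libraries, at 38.7%, 35.8% and 23.5%, and rare in TCRγδ Tcf7KO at 4.86%. Tyrobp without Fcer1g stayed between 0.877% and 2.89%. Neither was found in 14.4%, 12.1%, 8.63% and 2.43% of cells, and among Cd8b1-positive cells in 49.9% of Tcf7WT and 41.7% of Tcf7KO cells. Within TCRβ Tcf7WT, Tyrobp was found in 53.3% of cells with an Fcer1g UMI and in 16.8% of cells without one. Thinning fixed the UMIs per cell, and Hcst was found in 72.0% and 69.0% of the same cells.

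Cells with an Fcgr3 UMI nearly all had an Fcer1g UMI, and in the TCRγδ sort nearly all had a Tyrobp UMI as well. Most cells of any kind had an Fcer1g UMI. Over all thinned cells, 17.3%, 14.7%, 11.3% and 3.30% had none (TCRβ before TCRγδ, and Tcf7WT before Tcf7KO). No Tyrobp UMI was found in 53.0%, 47.9%, 32.1% and 7.28%. In TCRγδ Tcf7KO the shares that follow are therefore close to those of all cells. In TCRγδ Tcf7KO, 129 thinned cells had an Fcgr3 UMI and all 129 also had an Fcer1g UMI and a Tyrobp UMI. In TCRβ Tcf7WT 116 of 118 such cells had an Fcer1g UMI and 92 a Tyrobp UMI. In TCRβ Tcf7KO these were 192 and 171 of 198 cells, and in TCRγδ Tcf7WT 56 and 55 of 58. Cd247 leaned the other way in 3 libraries: it was found in 20.4% of TCRβ Tcf7WT cells with an Fcer1g UMI and 26.7% of those without, in 20.4% and 26.2% in TCRβ Tcf7KO and in 26.4% and 33.9% in TCRγδ Tcf7WT.

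**Figure D3:**
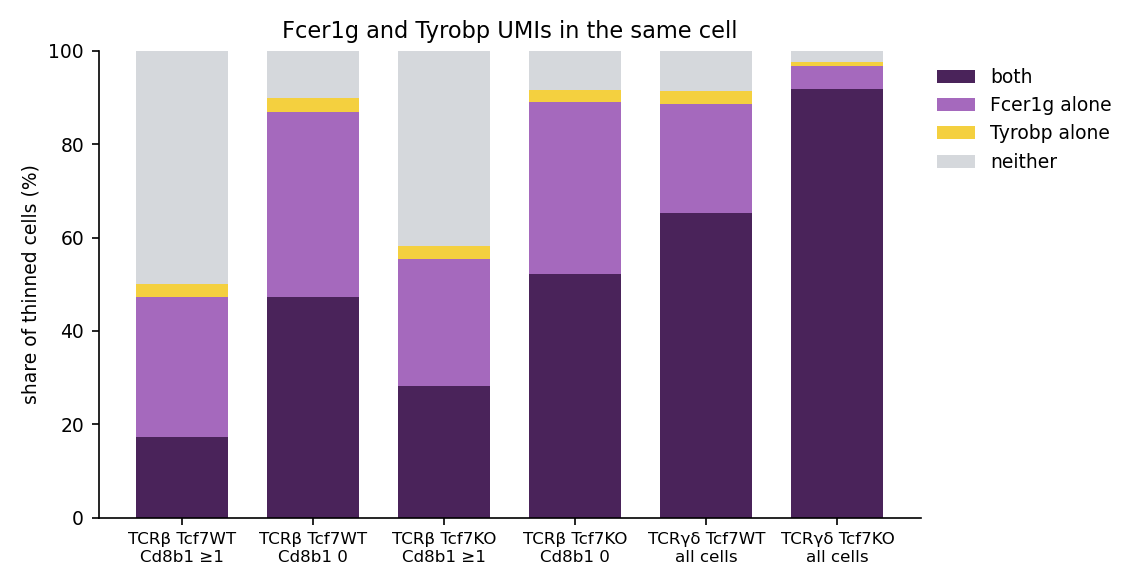
Share of cells, each thinned to 1624 UMIs, with UMIs of Fcer1g and Tyrobp, of either alone or of neither, as stacked bars that sum to 100%; TCRβ cells are divided by Cd8b1 UMIs. Cells with both make up 17.3% of Cd8b1-positive TCRβ Tcf7WT cells and 91.8% of TCRγδ Tcf7KO cells.

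The genotype differences of some members moved with Gzma, whose product is a granule protease. Gzma stood at 1656, 4475, 12475 and 18928 CPM (TCRβ before TCRγδ, and Tcf7WT before Tcf7KO), and a UMI of it was found in 9.94%, 32.5%, 61.4% and 87.8% of cells, or in 9.06%, 28.5%, 58.9% and 83.5% after thinning. Cells were therefore divided by whether they held a Gzma UMI, a division made after these values had been seen. In the TCRβ sort, Fcer1g in cells without a Gzma UMI stood at 1770.1 CPM in Tcf7KO and 1758 CPM in Tcf7WT, and Tyrobp at 666 and 685 CPM (log2 ratio -0.04). In cells with a Gzma UMI (1883 and 756 cells) Fcer1g stood at 2448 CPM in Tcf7KO and 2205 CPM in Tcf7WT (0.15, 0.10 to 0.20), the same log2 ratio as over all cells, and Cd247 at 0.37 (0.17 to 0.57). Tyrobp in them stood at 1542 CPM in Tcf7KO and 1735 CPM in Tcf7WT (-0.17). Tyrobp was thus higher in TCRβ Tcf7KO over all cells and in neither of the 2 classes. Cells with a Gzma UMI, where the Tyrobp level was higher, made up more of the Tcf7KO library. Among cells without a Gzma UMI, Cd8b1-positive ones did hold more Tyrobp in Tcf7KO (399 against 278 CPM, 0.52, 0.36 to 0.69). Cd8b1-negative ones did not (704 against 737 CPM, -0.07). The part of each in the difference over all cells was not tested. In the TCRγδ sort, cells without a Gzma UMI (185 and 729 cells) gave 0.01 for Fcer1g and -0.07 for Tyrobp, but cells with one (1326 and 1159 cells) gave 0.56 and 0.72, with Tyrobp at 2359 against 1433 CPM.

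Hcst and Fcgr3 kept their direction in both classes of both sorts. Hcst was lower in Tcf7KO by a log2 ratio of -0.18 without and -0.56 with a Gzma UMI in the TCRβ sort and of -0.53 and -0.77 in the TCRγδ sort. Fcgr3 was higher by 0.64 and 0.45 in the TCRβ sort and by 1.14 and 1.55 in the TCRγδ sort. Gzma detection depends on depth and on free RNA, and Gzma differs between the genotypes itself. In sums over whole libraries, fewer cells of a kind and less RNA per cell cannot be told apart.

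**Figure D4:**
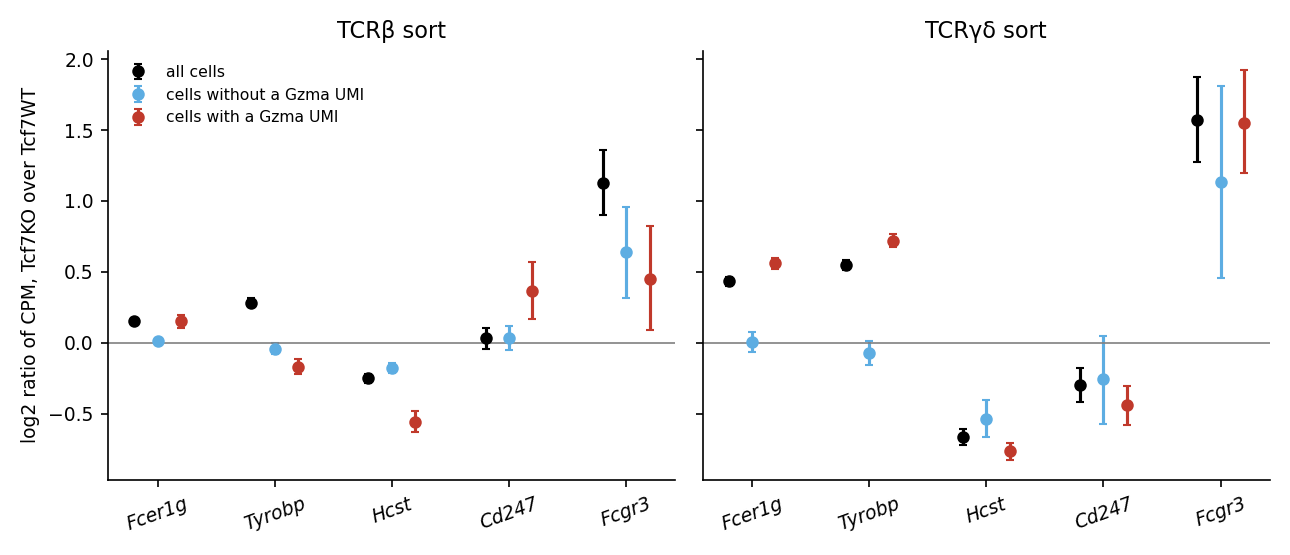
Log2 ratio of CPM, Tcf7KO over Tcf7WT, for each member over all cells, cells without a Gzma UMI and cells with one, in the TCRβ sort (left) and the TCRγδ sort (right); bars are exact 95% intervals for counting error. Tyrobp in the TCRβ sort is 0.28 over all cells but -0.04 and -0.17 within the classes, while Hcst is below 0 in every class.

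The receptors that use these adaptors differed gene by gene. Of 20 adaptor-paired receptors, 12 were listed in no library, among them Trem1, Trem2 and Siglech, so these myeloid partners of DAP12 had no value. Klrk1, which encodes NKG2D, the partner of DAP10, stood at 73.0 CPM in TCRβ Tcf7WT, 54.4 CPM in TCRβ Tcf7KO, 36.96 CPM in TCRγδ Tcf7WT and 6.96 CPM in TCRγδ Tcf7KO, so it was lower in both Tcf7KO libraries, as Hcst was. Klrb1c, which encodes the killer-cell receptor NK1.1 and pairs with Fc receptor γ, stood at 52.7, 84.9, 78.9 and 169 CPM in that order and was higher in both. Past 1.5-fold were 1 higher and 1 lower of 6 receptors with at least 50 UMIs between genotypes in the TCRβ sort, where 1.66% and 2.24% of all genes were, and 2 and 2 of 4 in the TCRγδ sort, where 4.61% and 3.42% were. In Cd8b1-negative against positive cells of Tcf7WT it was 3 higher and 0 lower of 4 (all genes 8.33% and 3.12%), with Klrb1a at 204 against 99.1 CPM. In Tcf7KO it was 2 and 2 of 5 (all genes 5.09% and 3.06%), with Klrk1 lower in negative cells (50.5 against 82.9 CPM) and Klrb1a higher (202 against 122 CPM).

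The CD3 chains, the fixed partners of CD3ζ in the T cell receptor, stayed close in every comparison. None of Cd3d, Cd3e and Cd3g was 1.5-fold apart in any of the 6 comparisons. Of all genes, 1.66% to 8.45% were past that bound in a given direction of a comparison, so this count does not set the CD3 chains apart. Their log2 ratios lay between -0.23 and 0.37. Cd3g, at 0.37 and 0.31 in Cd8b1-negative against positive cells of Tcf7WT and Tcf7KO, was the furthest.

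The signalling genes downstream of an ITAM were counted in the same way, beside the shares of all genes given above. Between genotypes in the TCRβ sort 0 of 21 were at least 1.5-fold apart in either direction (all genes 1.66% higher and 2.24% lower), with a list median of 0.03 against -0.07 for all genes. In the TCRγδ sort 2 were higher and 1 lower of 22 (all genes 4.61% and 3.42%). Lat, the scaffold that ZAP-70 phosphorylates, stood at 39.4 CPM in Tcf7KO against 103 CPM in Tcf7WT, and the PI3-kinase subunit gene Pik3r1 at 515 against 331 CPM. Blnk, a B cell adaptor, had 49 against 11 UMIs. In Cd8b1-negative against positive cells 6 were higher and 1 lower of 21 in Tcf7WT (all genes 8.33% and 3.12%), and 5 and 1 of 21 in Tcf7KO (all genes 5.09% and 3.06%), with medians of 0.09 and 0.08 against 0.07 and 0.03 for all genes.

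The scaffolds stood on opposite sides. Lat was lower in Cd8b1-negative cells, at 131 against 376 CPM in Tcf7WT and 113 against 306 CPM in Tcf7KO. Lat2, which encodes the related scaffold NTAL, was higher, at 141 against 59.7 CPM and 164 against 95.6 CPM. The Src-family kinase gene Lyn was 0.93 and 0.78 on the log2 scale, and Sh2d1b1, which encodes the SAP-family adaptor EAT-2, was 1.31 and 0.72. The T cell kinases differed less: Lck stood at -0.16 and -0.12, Fyn at 0.02 and 0.02 and Zap70 at 0.24 and 0.24. Syk had 5 and 13 UMIs in TCRγδ Tcf7WT and Tcf7KO and was not listed in the TCRβ libraries. Of the negative regulators with at least 50 UMIs, 0 of 15 were 1.5-fold apart between genotypes in the TCRβ sort (all genes 1.66% higher and 2.24% lower). In the TCRγδ sort it was 0 of 14 (all genes 4.61% and 3.42%). With shares this low, counts of 0 do not set these genes apart. In Cd8b1-negative against positive cells 2 were higher and 1 lower of 15 in Tcf7WT (all genes 8.33% and 3.12%). In Tcf7KO it was 0 and 1 of 15 (all genes 5.09% and 3.06%). Ubash3a, which encodes a phosphatase-family suppressor of T cell receptor signalling, was lower in Cd8b1-negative cells, at 7.02 against 23.5 CPM in Tcf7WT.

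**Figure D5:**
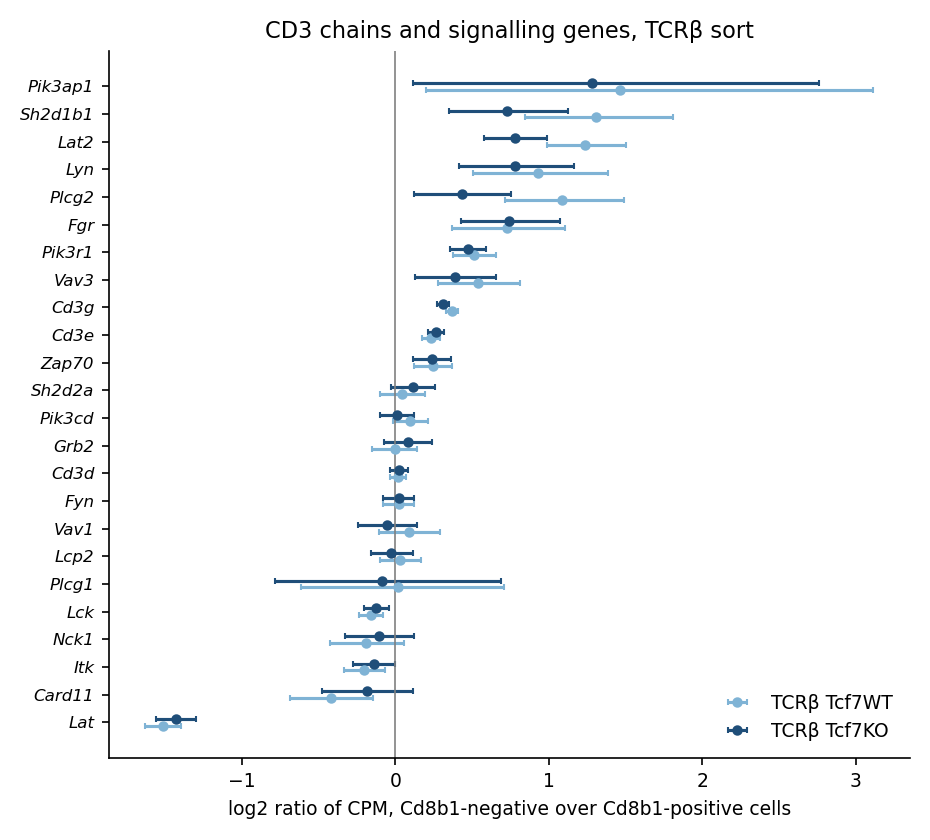
Log2 ratio of CPM, Cd8b1-negative over Cd8b1-positive TCRβ cells, for CD3 chains and downstream signalling genes with at least 50 UMIs; bars are exact 95% intervals for counting error. Lat lies at -1.52 and -1.43, the CD3 chains between 0.02 and 0.37, and Lat2 at 1.24 and 0.78.

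To find the genes most like each member, levels were compared over 11 classes of thinned cells (library by Cd8b1 and Gzma detection), as Pearson r of log2(CPM + 1) across 6389 genes. Classes of 1 library share that library, so r is a description. Cd7, a surface glycoprotein of T and natural killer cells, was most like Fcer1g (r 0.988), ahead of Furin (0.974) and Cd3g (0.972). For Tyrobp the closest were Mcam (0.984), Lat2 (0.978) and Itih5 (0.978), and for Fcgr3 Tmem123 (0.976), Nr4a2 (0.967) and the Src-family kinase gene Fgr (0.967). Hcst (Tram1 0.889, Cyb5a 0.877, Atxn1 0.827) and Cd247 (Tspan13 0.815, Rcn3 0.807, Psme2 0.768) had no gene as close. Between members, r was 0.930 for Fcer1g with Tyrobp, 0.942 for Tyrobp with Fcgr3, 0.854 for Fcer1g with Fcgr3, -0.558 for Fcer1g with Cd247 and -0.119 for Tyrobp with Hcst. With classes by Cd8b1 alone, 2 of the 3 genes closest to Fcer1g were shared, 1 of 3 for Fcgr3 and 0 of 3 for the others.

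Cells of other types express Fcer1g, Tyrobp and Fcgr3 strongly, so their markers are given beside these values. Of 10 myeloid markers, 7 were listed in no library, including Lyz2, Csf1r, Adgre1 and the C1q genes, and the other 3 summed to 3.89 to 13.7 CPM. Of 7 mast cell markers, Mcpt1, Mcpt2, Tpsb2 and Fcer1a were listed in none, and Cpa3 stood at 2.42 to 3.40 CPM. Kit and Cd79b made up 90.3% to 95.1% of the UMIs of the myeloid, mast and B cell lists. Kit had UMIs in 596 to 2188 cells of a library, against 15 to 68 cells for Cpa3. Cells with a UMI of Cd68, Itgam, Cd14, Cpa3, Hdc, Cd79a or Jchain were 2.68% to 7.28% of cells. They held 3.01% to 7.28% of the Fcer1g UMIs, 3.06% to 7.16% of the Tyrobp UMIs and 4.55% to 9.17% of the Fcgr3 UMIs. The Fcgr3 share was above their share of all UMIs in TCRβ Tcf7KO (8.14% against 5.16%) and in both Tcf7WT libraries, and below it in TCRγδ Tcf7KO (6.78% against 11.4%). Without these cells every member's ratio whose interval did not hold 0 kept its direction. Klre1, a killer-cell receptor gene of the NK or ILC list, stood at 197 to 273 CPM. Ncr1, a marker of the same list, had 4 UMIs in TCRβ Tcf7KO and was not listed in the other libraries, where it has no value.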

How the data were processed

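Sorted colon IELs were put through a droplet-based 3′ single-cell kit (v2), per the labels' protocols. The authors deposited 1 matrix per library with whole UMI counts per gene and cell, and the total count per library was 6195292 to 20289960. Seurat 3.0.0 and the builds GRCm38 and mm10 appear, with no role, in the submitters' processing notes. The aligner and counter are not given in the sources used here. Each library lists its own genes, by a rule that is not given, and an unlisted gene has no value there.

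UMIs were summed per library or class of cells and divided by the class total (CPM). Poisson, conditional (for ratios) and Clopper-Pearson (for shares) intervals are exact at 95%, for counting error alone. A single library per group allows no test, so 1.5-fold was used as a bound of size. The genes that give the background needed at least 100 UMIs over both sides and the genes of a list 50. A share of 0 is limited by 3 counts of the total. No cells were clustered and no doublet caller was run: the alternative of 500 to 3500 genes per cell bears on doublets. Named were the 5 members, the 4 members of each other list with the largest absolute ratio, other genes of a list chosen after their values were seen, such as Syk, Zap70, Lck, Fyn, Klre1 and Cpa3, and the 3 genes most like each member among those with at least 20 CPM. The members and lists were chosen with earlier results of these data known. The ratio script was tested on simulated data. The alternatives tried were scaling by TMM (edgeR 4.0.16) or by DESeq2 1.42.0, each cell weighing the same, thinned cells, totals without receptor segments, other cell filters and a stricter Cd8b1 class. Those added after seeing the data used only cells with or without a Gzma UMI, left out shared barcodes, left out cells marked as circulating by Ccr7, S1pr1 or Lef1 (in place of a longer planned list, of which 1 gene is not reported here), or left out cells with a marker of another type other than Kit and Cd79b. Python 3.11.15 with scipy 1.17.1 was used.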

Additional observations from a re-analysis of the deposited data

Results flagged for a closer look

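The sort difference of Hcst had opposite signs in the 2 genotypes. Its log2 ratio of TCRγδ over TCRβ was 0.27 in Tcf7WT (1017 against 846 CPM) and -0.15 in Tcf7KO (641 against 710.2 CPM). Each genotype has 1 library per sort, and the difference was not tested. The signs were the same under all alternatives run for both genotypes, which gave 0.09 to 0.34 in Tcf7WT and -0.26 to -0.05 in Tcf7KO.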

How the results depend on the processing

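Of 400 ratios of single members recomputed under an alternative, 253 stayed within their counting interval and 129 moved beyond it, both with the same sign, and 18 changed sign. Of these, 10 were of Cd247 in the 2 comparisons whose interval held 0: between genotypes in the TCRβ sort it was -0.06 in thinned cells, and for TCRγδ over TCRβ in Tcf7KO it took 9 values above 0, the highest 0.12 in thinned cells. The other 8, of ratios whose interval did not hold 0, arose when only cells with or only cells without a Gzma UMI were used. Without a Gzma UMI, Tyrobp was -0.041 between genotypes in the TCRβ sort and -0.071 in the TCRγδ sort, and Cd247 was -0.13 for TCRγδ over TCRβ in Tcf7WT. With a Gzma UMI, Tyrobp was -0.17 between genotypes in the TCRβ sort, the TCRγδ over TCRβ ratios in Tcf7WT were -0.13 for Fcer1g, -0.28 for Tyrobp and -0.77 for Fcgr3, and Hcst was 0.027 for Cd8b1-negative over positive cells of Tcf7WT. The cause was not tested. Of 160 counts of members past 1.5-fold and other counts, 145 kept within 1.5 times. The TCRγδ genotype count of higher members was 2 instead of 1 under TMM, DESeq2, equal cell weight, both settings without marked cells of other types, 500 to 3500 genes, and cells with a Gzma UMI, and the count of lower members was 0 instead of 1 without one. With a Gzma UMI, 0 were higher between genotypes in the TCRβ sort, 1 was higher and 1 lower for TCRγδ over TCRβ in Tcf7WT, and 1 was higher in Tcf7KO. Without circulating-marked cells, 1 was higher for TCRγδ over TCRβ in Tcf7WT and 1 for Cd8b1-negative over positive cells of Tcf7KO. At 2 Cd8b1 UMIs for a positive cell, 1 was lower in negative Tcf7WT cells. At 20 instead of 100 UMIs the background shares of genes higher and lower were 3.29% and 6.13% (TCRβ genotypes), 10% and 6.83% (TCRγδ genotypes), 11% and 9.32% (sorts, Tcf7WT), 13.8% and 9.62% (sorts, Tcf7KO), 14.2% and 5.48% (Cd8b1, Tcf7WT) and 10.2% and 6.13% (Cd8b1, Tcf7KO). Circulating-marked cells were left out by the shorter list of markers alone, and values under the longer planned list are not given. No paired analysis was possible because each group is 1 library. Depth limits Fcgr3 most, with 8 and 23 UMIs in Cd8b1-positive cells.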
